A study of Mus musculus with 6 samples.

Results

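Mueller glia are the radial glial cells that span the retina from the vitreous to the photoreceptor layer. They clear glutamate and potassium, move water through aquaporin-4, recycle retinoids for cones and feed neurons with lactate. In ischemic retina they are known as a source of vascular endothelial growth factor and as the cells that build the glial response called gliosis, with intermediate filaments and acute-phase genes. Cells lacking oxygen stabilize hypoxia-inducible factors (HIF), which switch on genes for glycolysis, mitochondrial adjustment and vessel growth.

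The cells described here were Mueller glia with at least 4000 unique molecular identifiers (UMIs), a UMI being a tag that marks a single captured RNA molecule. A cell barcode was a member when it had 500 to 5000 detected genes, at most 20% of its counts from mitochondrial (mt-) genes and at least 4000 UMIs, when at least 4 of the 5 genes Slc1a3, Rlbp1, Glul, Dkk3 and Car14 were detected, and when Pax2, Rpe65 and Arr3 had 0 UMIs. The members were thus selected on the UMI, gene and mitochondrial counts of each cell and on the detection of these 8 genes. This rule found 2123 members among 47631 deposited barcodes, 38569 barcodes within the limits on genes and mitochondrial counts (called kept cells from here on) and 11327 kept cells with at least 4000 UMIs. The last condition, 0 UMIs of Pax2 (astrocytes), Rpe65 (pigment epithelium) and Arr3 (cones), left out 197 barcodes that met all the others.

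The samples were dissociated mouse retinas taken at postnatal day 17 (P17), 3 with oxygen-induced retinopathy (OIR) and 3 controls, each pooled from 2 mice and run in a droplet platform that reads the 3′ end of RNA. The OIR pups breathed 75% oxygen between P7 and P12, followed by 5 days of room air, the controls had room air throughout, and strain and sex are not given in the labels. High oxygen removes the central retinal capillaries in this model, and the return to air leaves the vessel-poor retina short of oxygen. The labels call the source retinal endothelial cells, but 3146 of the 11327 cells met the definition of rods given below and 2123 that of Mueller glia, so the samples are treated here as whole retina. In control replicates 2 and 3, Xist stood at 1254 and 1560 CPM (UMIs of a gene per 1000000 UMIs of a sample's summed members) and 4 Y-linked genes at 0 UMIs, while Xist had at most 2 UMIs in each of the other 4 samples, in which the Y-linked genes were present. All OIR samples were thus male by these genes and 2 of 3 controls were female.

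OIR replicates 1, 2 and 3 gave 653, 253 and 259 members with 6846579, 2869382 and 2713040 UMIs in all. Control replicates 1, 2 and 3 gave 585, 200 and 173 members with 4729788, 2348601 and 1479728 UMIs. Both replicate 1 samples held more members than the others of their group. The median UMI count per member was 10082, 11701 and 10597 in the OIR samples, and 7829, 11739 and 8275 in the control samples, so that the medians of the groups overlapped. The median mitochondrial share was 6.68%, 3.58% and 3.01% in OIR and 7.39%, 4.41% and 4.73% in control, again highest in the replicate 1 samples. Of 47374 different barcode strings, 254 occurred in more than 1 sample, and 2 members carried a barcode that was also a member in another sample. In a principal component analysis of the summed counts, the first component (37.8% of the variance) held all OIR samples on the side opposite to all controls, and the second (24.9%) set control replicate 1 apart from the rest.

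**Figure D1:**
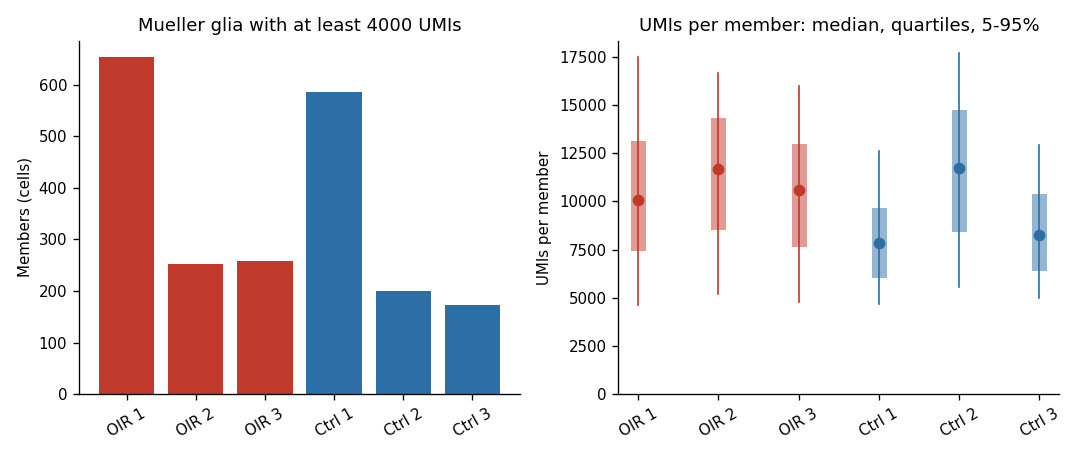
Left, number of Mueller glia with at least 4000 UMIs in each sample (bars, cells). Right, UMIs per member, with the median as a point, the quartiles as a thick bar and the 5th to 95th percentile as a line. The replicate 1 samples gave 653 and 585 members and the other 4 samples between 173 and 259, and the medians ran from 7829 to 11739 UMIs.

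The share of these cells among kept cells with at least 4000 UMIs was 21.9% (95% exact binomial interval 20.4 to 23.4), 17.6% (15.6 to 19.6) and 20.9% (18.7 to 23.3) in the OIR samples. In the control samples it was 14.6% (13.5 to 15.7), 20.3% (17.8 to 22.9) and 26.0% (22.7 to 29.5). The intervals cover counting error only. The lowest and the highest share were both control samples, and the means of 20.1% ± 2.26 (SD, n = 3) in OIR and 20.3% ± 5.70 (SD, n = 3) in control differed by -0.16 percentage points, less than the spread between replicates (exact permutation test, two-sided, p = 1, where 3 against 3 samples give 0.1 at the lowest). The sign of this difference turned with the denominator, to 1.49 points over all kept cells (exact permutation p = 0.6) and to 5.14 points over kept cells with at least 4000 UMIs that were not rods (exact permutation p = 0.3). Shares depend on how well each cell type survives dissociation, which was not measured.

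The name of the cells was checked on genes that the rule did not use. Each member was reduced at random to 4000 UMIs, and so was each of 3146 rods with at least 4000 UMIs (at least 4 of Nrl, Nr2e3, Pde6a, Pde6b, Gnat1 and Cnga1, at most 1 of the 5 Mueller genes, and 0 UMIs of the 3 barred genes). At this equal depth, Sox2, a transcription factor of retinal glia and progenitors, was detected in 71.1%, 82.2% and 77.6% of OIR members and in 76.9%, 73.0% and 81.5% of control members, against at most 1.63% of rods in any sample, and without the reduction it was detected in 88.4% to 91.9% of members. Sox9, another glial transcription factor, was detected in 68.8% to 86.7% of members against at most 5.82% of rods. Apoe was detected in at least 99.5% of members but also in 10.0% to 36.1% of rods, the share at which RNA of an abundant glial gene was found in other cells. Together, 25 Mueller glia genes outside the rule (of which 24 were detected) summed to between 35735 and 43843 CPM in members and to between 959 and 2491 CPM in rods.

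RNA of other cell types was present. The 14 rod markers summed to 7327, 8918 and 10363 CPM in OIR members and to 10725, 17354 and 6822 CPM in control members, all 14 passed the filter on low counts, and none was called. At least 4 of the 6 rod genes were detected in 37.5%, 26.5% and 34.7% of OIR members and in 45.1%, 32.0% and 23.7% of control members. The groups overlapped in the sum and in every rod marker, while 13 of the 14 rod markers had a negative log2 fold change (median -0.35). The 13 bipolar cell markers summed to 337, 57.9 and 251 CPM in OIR members and to 620.3, 169 and 164 CPM in control members. Of the 12 that passed the filter 11 had a negative log2 fold change (median -0.50), and none was called. OIR lay wholly below control in 1 of the 12, against 5.84% of all genes tested. The part of this RNA in the genes that fell was not tested. Single cells carried other RNA: 1 member of OIR replicate 1 held all 800 S100a8 UMIs and 903 of the 904 S100a9 UMIs of the series' members (neutrophil genes), and 1 member of OIR replicate 3 held 141 of its 145 C1qa UMIs (a microglial gene). Control replicate 1 stood apart in endothelial RNA, with 135 Cldn5 UMIs over 25 members and 116 Ly6c1 UMIs over 18 members, while Ly6c1 was at 0 in the members of all other samples and Cldn5 in all but OIR replicate 1, which had 5. Doublets were not called here, and counts without the most UMI-rich members are given with the alternatives.

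The thresholds can be read on the cells beside them. The 64 members with 4000 or more but under 4500 UMIs had 32575 CPM of the 25 Mueller genes outside the rule, and the 76 cells with 3500 or more but under 4000 UMIs that met every other condition had 35420 CPM. The limit of 4000 UMIs thus cuts through cells of like content. The 131 members with exactly 4 of the 5 genes had 20656 CPM of the same genes and 47046 CPM of rod markers, and the 180 otherwise like cells with exactly 3 had 8107 and 41534 CPM. All 5 genes were detected in 1992 members (93.8%).

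The 5 genes that chose the cells are described without a test. Glul, which makes glutamine from glutamate, lay at 5774, 8859 and 6162 CPM in OIR and at 9273, 9834 and 10139 CPM in control, so that every OIR sample lay below every control sample. Slc1a3, the glial glutamate transporter, lay at 1305, 1413 and 1728 CPM in OIR and at 899.6, 1157 and 1070.5 CPM in control, every OIR sample above every control sample. Rlbp1, which carries retinaldehyde, ranged from 3278 to 3637 CPM in OIR and from 2490.4 to 4205 CPM in control. Dkk3, a secreted Wnt modulator, had group means of 1308 and 1376 CPM in ranges that overlapped. Car14, a membrane carbonic anhydrase, had means of 1454 and 1306 CPM, again with overlap.

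The UMIs of all members of a sample were added up gene by gene, and the resulting 6 profiles were tested for OIR against control with edgeR (quasi-likelihood). Calls followed the limits of the study: 11389 genes were tested, p was adjusted over all of them after Benjamini and Hochberg, and a gene passed if the adjusted p lay below 0.05 and the size of its log2 fold change reached 0.25. In the OIR samples 117 genes were higher (1.03% of those tested) and 67 lower (0.588%). Called genes that rose had a median log2 fold change of 1.52 and those that fell a median of -1.22, against a median of -0.0046 over all genes. The groups did not overlap in any of the 184 called genes, while over all genes tested OIR lay wholly above control in 1540 (13.5%) and wholly below in 665 (5.84%). The number of calls rested on single samples. It fell to 12 higher and 7 lower without control replicate 2, to 18 and 7 without OIR replicate 1, to 30 and 7 without OIR replicate 3, to 29 and 15 without control replicate 3 and to 103 and 42 without OIR replicate 2, and rose to 171 and 157 without control replicate 1. All 184 called genes were tested in each of these fits, and each kept its direction. A term for sex, which leaves control replicate 1 as the only control of the same sex as the OIR samples, gave 103 higher and 106 lower calls, of which 53 and 31 were among the 117 and 67.

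The genes named in the following paragraphs differed in how far they rested on single samples. The counts given here cover 47 called genes. They leave out Bnip3, Egln3, Adm, Isg15 and H2-T23, which were named after their values were seen. Of the 47 named genes that were called, 13 were called whichever sample was left out: Ndufa4l2, Anxa2, Tnfrsf12a, Egfl7, Nxph4, Odc1, Kdelr3, Apba2, Sez6l and Tesc among those that rose, and BC055402, Slco1c1 and Zfp467 among those that fell. All of these but Anxa2 and Egfl7 were called under every alternative listed in the closing section. The number called of the 47 was 44 when control replicate 1 was left out and 39 for OIR replicate 2, but 23 for control replicate 3, 20 for OIR replicate 3 and 17 for OIR replicate 1 as well as for control replicate 2. Stc2, Ero1l, Nes, Gpi1, Pfkp, Igfbp2, Slc4a4, Col2a1, Fn1, Mt3 and the interferon genes Rsad2, Irf9 and Gbp3 were not called in any of the fits that left out OIR replicate 1, OIR replicate 3, control replicate 2 or control replicate 3. Aqp4, Kcnj10, Slc14a1 and Bcan were called, of these fits, only with all samples or without control replicate 1, and Tgm2 and Gsr only with all samples. Some called genes also overlapped between the groups at certain depths. In members below 8000 UMIs these were Bcan, Cxcl14, Irf7, Irf9, Kcnip4, Slc14a1 and Stc2. From 8000 to below 12000 UMIs they were Loxl2 and Slc38a2. With at least 12000 UMIs they were Abca8a, Car5b, Deptor, Fn1, Gsr, Igfbp2, Irf7, Kcnj10, Neurog2 and Slco1c1.

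**Figure D2:**
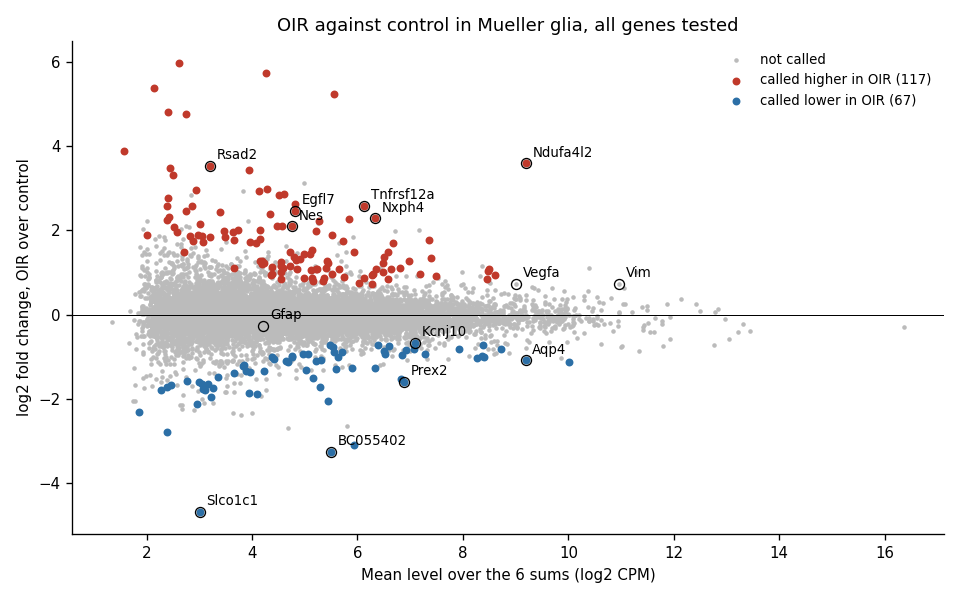
Each of the 11389 tested genes by its mean level (x axis, log2 CPM) and its log2 fold change of OIR over control (y axis) in Mueller glia, with called genes in red (117 higher) and blue (67 lower) and some named genes ringed. Ndufa4l2 stands alone at high level and a log2 fold change of 3.59, while Vim, Vegfa and Gfap are ringed but not called.

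Ndufa4l2, a mitochondrial protein related to a subunit of complex IV and a known HIF target, had the lowest p of all genes. Its gene (ENSMUSG00000040280) lies at chr10:127514967-127517154 of GRCm38. It stood at 1379.8, 822 and 1051 CPM in OIR members and at 86.7, 72.0 and 103 CPM in control members. Every OIR sample was several times above every control sample, a ratio of mean CPM of 12.5 (log2 fold change 3.59 ± 0.26 SE, adjusted p = 0.00041). At 4000 UMIs per cell it was detected in 69.8%, 66.0% and 65.3% of OIR members and in 17.6%, 16.0% and 19.1% of control members, against at most 5.73% of rods. Without the reduction the shares were 76.6%, 74.7% and 71.8% in OIR members and 26.0%, 32% and 27.7% in control members. The gain thus lay in most of the cells and not in a few. It was also present at each depth: the ratio of mean CPM was 15.3 in members below 8000 UMIs, 9.55 in those from 8000 to below 12000 and 19.6 in those with at least 12000, and the groups did not overlap in any of the 3.

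Of 34 hypoxia response genes, 31 passed the filter, 7 rose and none fell (background 1.03% higher and 0.588% lower), with a median log2 fold change of 0.36 against -0.0046 over all genes. The median went to 0.17 without OIR replicate 1, and ran from 0.17 to 0.50 over the 20 alternatives of the closing section. OIR lay wholly above control in 14 of the 31 (background 13.5%) and wholly below in none (background 5.84%). Besides Ndufa4l2, Anxa2, a calcium-dependent membrane-binding protein, rose from 4.86, 2.13 and 4.05 CPM in control to 44.1, 21.96 and 26.5 CPM in OIR (log2 fold change 2.97 ± 0.38 SE, adjusted p = 0.0077). Stc2, a secreted glycoprotein, rose from 10.4, 10.6 and 9.46 CPM to 26.9, 24.4 and 22.5 CPM (1.21 ± 0.20, adjusted p = 0.021). Ero1l, which drives disulfide formation in the endoplasmic reticulum, rose from 19.2, 16.6 and 14.9 CPM to 63.1, 36.9 and 44.6 CPM (1.45 ± 0.24, adjusted p = 0.021). Bnip3, a receptor for the removal of mitochondria, rose by 0.97 on the log2 scale (adjusted p = 0.023), from 73.2, 104 and 107 CPM in control to 194, 200.04 and 184 CPM in OIR. In each of these genes the groups were well apart over all members. The other called genes were Egln3, an oxygen-sensing hydroxylase that marks HIF for decay (2.57, adjusted p = 0.045), and Adm, the vasoactive peptide adrenomedullin (5.23 ± 0.92, adjusted p = 0.023), which like Bnip3 were named after their values were seen. Adm lay at 159, 79.8 and 12.9 CPM in OIR, more than 10-fold apart, and at 0.426 to 3.38 CPM in control.

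Not all hypoxia genes passed the limits. Vegfa, the main angiogenic factor of the retina, lay at 824, 602 and 509 CPM in OIR and at 267, 361 and 503 CPM in control. The groups were separated by a few CPM only, the log2 fold change was 0.72 ± 0.26 SE and the gene was not called (adjusted p = 0.236). With 1 sample left out its log2 fold change ran from 0.46 to 0.99. The ratio of mean CPM was 1.24 in members below 8000 UMIs, where the groups overlapped. It was 1.62 from 8000 to below 12000 UMIs and 2.14 with at least 12000, without overlap. Slc2a1, the glucose transporter (0.36), Pdk1, which keeps pyruvate from mitochondria (0.51), and Hif1a itself (-0.21) were not called either. In Slc2a1 and Pdk1 OIR lay wholly above control, and in Hif1a the groups overlapped. The hypoxia count was 5 without OIR replicate 2, 2 without OIR replicate 1, control replicate 2 or control replicate 3, 3 without OIR replicate 3 and 3 with a term for sex, and no fit called a member lower.

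The sequences upstream of these genes are shown because HIF binds a short core, ACGTG on 1 strand and therefore CACGT on the other, close to the start of many of its targets. Among the 5 called hypoxia genes with the lowest p, RefSeq promoters on GRCm38.p6 were found for 4, Anxa2, Stc2, Ero1l (RefSeq symbol Ero1a) and Bnip3, and not for Ndufa4l2. The 250 bases before the RefSeq start were searched. They are written 5′ to 3′ on the strand of the gene, with any match to the core on either strand in capitals, and without the bases at their 3′ end that GENCODE annotates as transcribed and untranslated (63 in Anxa2 and 13 in Stc2).

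Anxa2 (chr9:69453433-69453619, plus strand): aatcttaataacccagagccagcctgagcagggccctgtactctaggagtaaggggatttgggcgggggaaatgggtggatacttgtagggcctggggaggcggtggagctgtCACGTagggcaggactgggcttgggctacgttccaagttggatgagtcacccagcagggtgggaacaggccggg

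Stc2 (chr11:31370075-31370311, minus strand): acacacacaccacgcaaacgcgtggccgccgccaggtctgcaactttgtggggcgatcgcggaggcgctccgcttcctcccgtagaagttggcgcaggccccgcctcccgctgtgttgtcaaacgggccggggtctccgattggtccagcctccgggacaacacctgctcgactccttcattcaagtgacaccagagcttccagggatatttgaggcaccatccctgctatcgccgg

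Ero1l (chr14:45318573-45318822, minus strand): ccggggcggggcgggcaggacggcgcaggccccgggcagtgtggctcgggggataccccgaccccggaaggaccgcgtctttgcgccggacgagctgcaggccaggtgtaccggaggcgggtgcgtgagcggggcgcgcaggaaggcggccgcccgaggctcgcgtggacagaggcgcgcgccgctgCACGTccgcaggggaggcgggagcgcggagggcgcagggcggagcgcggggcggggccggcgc

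Bnip3 (chr7:138909507-138909756, minus strand): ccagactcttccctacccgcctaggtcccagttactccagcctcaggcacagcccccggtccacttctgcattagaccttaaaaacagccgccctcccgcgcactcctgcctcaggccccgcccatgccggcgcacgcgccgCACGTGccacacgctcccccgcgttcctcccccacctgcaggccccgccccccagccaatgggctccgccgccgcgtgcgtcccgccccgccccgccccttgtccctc

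In Anxa2 the match begins 137 bases before the RefSeq start and 74 before the GENCODE start. In Ero1l it begins 63 bases before the RefSeq start, but 199 bases of this window lie inside the gene as GENCODE annotates it, and the match lies 136 bases after the GENCODE start. Bnip3 holds the core on both strands in overlapping letters, from 108 bases before its RefSeq start and 95 before its GENCODE start, and the Stc2 window holds none. The last 13 bases of the Bnip3 window also lie inside the gene as GENCODE annotates it, and they are printed. Of all 32851 RefSeq windows of this length, 16.6% hold at least 1 match, so a match is a description of these letters and not of binding, which was not measured.

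Of 36 genes of the interferon response and of antigen presentation, 33 passed the filter, 6 rose and none fell (background 1.03% and 0.588%). Their median log2 fold change was 1.12, the highest of the 16 lists of gene functions, all 33 had a positive fold change, and OIR lay wholly above control in 15 of them (background 13.5%). The median went to 0.66 without OIR replicate 1, with 28 of 33 positive. Positive fold changes numbered 26 of 32 in replicates 2 and 3 alone, 30 of 33 with a term for sex and 27 of 29 when thinned. Rsad2, an antiviral enzyme (chr12:26442746-26456452), lay at 21.9, 5.23 and 13.6 CPM in OIR and at 1.27, 1.28 and 0.676 CPM in control (3.53 ± 0.62 SE, adjusted p = 0.023). Irf7, the regulator that amplifies interferon production, lay at 43.1, 17.8 and 45.7 CPM against 4.65, 12.8 and 8.11 CPM (2.11 ± 0.43, adjusted p = 0.042). In both genes OIR replicate 2 was the lowest OIR sample, and the groups did not overlap over all members. By depth, the groups overlapped for Irf7 in members below 8000 UMIs and in those with at least 12000. Irf9, part of the interferon-activated transcription complex, lay at 38.7, 23.7 and 49.4 CPM against 13.5, 14.1 and 10.1 CPM (1.47 ± 0.28, adjusted p = 0.032). In members below 8000 UMIs its groups overlapped. Gbp3, an interferon-induced GTPase, rose by 1.99 on the log2 scale (adjusted p = 0.037). The other called genes, named after their values were seen, were Isg15, a ubiquitin-like modifier (2.85, adjusted p = 0.043), and H2-T23, a class Ib antigen-presenting molecule (1.33, adjusted p = 0.0497).

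The whole list summed to 2417, 1040.3 and 1681 CPM in OIR members and to 897.5, 966 and 781 CPM in control members, so that OIR replicate 2 lay close to the controls. At 4000 UMIs per cell, at least 1 UMI of Isg15, Rsad2, Irf7, Ifit1 or Ifit3, a set chosen after the values were seen, was found in 39.97%, 18.6% and 37.8% of OIR members and in 13.8%, 17% and 10.4% of control members. At full depth these shares were 58.7%, 36.4% and 50.97% in OIR and 24.96%, 34.5% and 20.8% in control. Over the whole list at 4000 UMIs per cell, at least 1 UMI was found in 98.6%, 90.9% and 94.6% of OIR members and in 91.6%, 92.5% and 93.1% of control members, which overlap. In rods reduced to 4000 UMIs the share with any of the 5 genes was 11.6%, 6.26% and 4.19% in OIR and 5.36%, 4.96% and 2.86% in control. Immune cell RNA was present beside this. The 8 blood and leukocyte markers summed to 257, 2.09 and 6.63 CPM in OIR and 39.7, 5.11 and 12.2 CPM in control, with S100a9 the most abundant. The 12 microglia markers summed to 59.3, 30.3 and 294 CPM in OIR and 130, 22.1 and 43.9 CPM in control, with none called of 6 that passed the filter, all 6 with a positive log2 fold change (median 0.95), and Tmem119 at 0 in 3 of 6 samples. The part of immune cell RNA in the interferon result was not tested. No interferon gene was called without OIR replicate 1, without OIR replicate 3, without control replicate 2 or without control replicate 3, while 14 were called without OIR replicate 2, 1 was called with no upper limit on genes per cell or with at least 3 of the 5 Mueller genes, and 2 were called without the top 5% of members by UMIs, with a term for sex or in replicates 2 and 3 alone.

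Of 33 genes of reactive gliosis, 24 passed the filter, 3 rose and none fell (background 1.03% and 0.588%), with a median log2 fold change of 0.35. OIR lay wholly above control in 5 of the 24 (background 13.5%) and wholly below in none (background 5.84%). Nes, the intermediate filament nestin, stood at 46.3, 23.7 and 54.6 CPM in OIR and at 9.73, 10.2 and 7.43 CPM in control (2.10 ± 0.32 SE, adjusted p = 0.013). Tgm2, a protein-crosslinking enzyme, rose by 1.96 on the log2 scale (adjusted p = 0.045), and Anxa2, which stands in this list and in the hypoxia list, is described above. Vim, the main intermediate filament of Mueller glia, lay at 2531, 2458 and 2624 CPM in OIR and at 1086, 1480.03 and 1839 CPM in control. The OIR samples all lay above the control samples, yet the gene was not called (0.72 ± 0.22, adjusted p = 0.156). DESeq2 called it (0.71, adjusted p = 0.021), and so did edgeR in Mueller glia with under 4000 UMIs (1.00 ± 0.21, adjusted p = 0.031). Stat3 (0.39, adjusted p = 0.625), which transmits cytokine signals, and Egfr (-0.50, adjusted p = 0.373) were not called. The median of the gliosis list ran from -0.06 with a term for sex to 0.56 without control replicate 1, with 0.13 without OIR replicate 1, 0.22 without OIR replicate 2, 0.17 without control replicate 2 and 0.14 without control replicate 3, and 1 gene was called without OIR replicate 1, OIR replicate 3, control replicate 2 or control replicate 3.

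Gfap, the filament protein most used to show gliosis, did not separate the groups. It lay at 28.5, 11.2 and 5.53 CPM in OIR and at 43.6, 2.98 and 2.03 CPM in control (log2 fold change -0.27 ± 0.81 SE, adjusted p = 0.927). Control replicate 1 was the highest of all samples, and in it 1 member held 78 of 206 Gfap UMIs. At 4000 UMIs per cell Gfap was found in 6.58%, 4.35% and 0.772% of OIR members and in 2.74%, 0.500% and 0.578% of control members, against at most 0.355% of rods (at full depth 11.03%, 6.72% and 1.93% of OIR and 3.93%, 1.5% and 1.16% of control members). In members with fewer than 8000 UMIs the OIR samples lay at 41.8, 22.4 and 30.04 CPM and the controls at 7.77, 0 and 5.75 CPM, without overlap. These values rest on few UMIs. Over all depths OIR replicate 3 had 15 Gfap UMIs, and 10 of them came from 1 member, which had fewer than 8000 UMIs. The value of 30.04 CPM thus rests largely on that member. Control replicates 2 and 3 had 7 and 3 Gfap UMIs over all depths. From 8000 to below 12000 UMIs the OIR samples lay at 15.9, 12.2 and 0.864 CPM and the controls at 20.9, 8.49 and 0 CPM, which overlap. In members with at least 12000 UMIs control replicate 1 reached 242 CPM and the other samples at most 34.9 CPM. Without control replicate 1 the log2 fold change was 2.59 (adjusted p = 0.108). Astrocytes, which line the inner retina, express Gfap strongly. The 8 astrocyte markers summed to 434, 437 and 367 CPM in OIR and 566, 384 and 340 CPM in control, Pdgfra lay at 14.3, 18.8 and 31.3 CPM against 21.99, 1.70 and 0.676 CPM, Igf1r was the most abundant, Fgfr3 was at 0 in 5 of 6 samples, and their part in the Gfap counts was not tested.

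Some genes of the list had few UMIs. Lcn2, lipocalin-2, had 81, 7 and 8 UMIs in OIR members and 92, 2 and 1 UMIs in control members and did not pass the filter. At equal depth it was found in at most 2.39% of members and in up to 5.87% of rods, while single members held 26 of the 81 UMIs of OIR replicate 1 and 27 of the 92 UMIs of control replicate 1. Serpina3n, a protease inhibitor, had 121, 14 and 6 UMIs in OIR and 20, 0 and 0 UMIs in control (2.08 ± 0.91, adjusted p = 0.348), and its log2 fold change ran from 0.71 to 7.93 with 1 sample left out. Edn2, endothelin-2, had 4 UMIs over all members, 3 of them from OIR replicate 1 and 1 from control replicate 1.

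**Figure D3:**
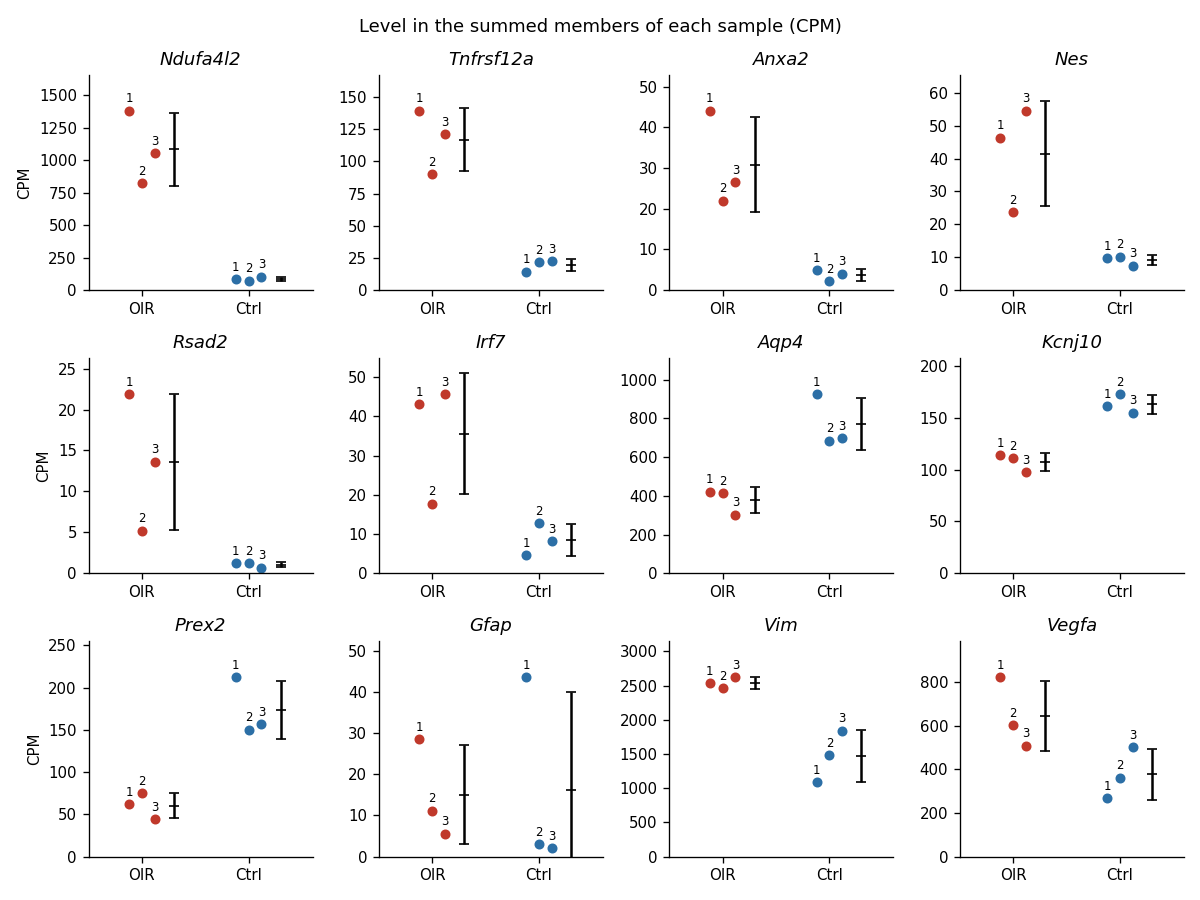
Level of 12 genes in the summed members of each sample (y axis, CPM, from 0), OIR in red and control in blue with the replicate number above each point, and the mean ± SD beside them (the control bar of Gfap is cut at 0). Ndufa4l2 stands at 822 to 1379.8 CPM in OIR and 72.0 to 103 CPM in control, Aqp4, Kcnj10 and Prex2 are lower in every OIR sample, and Gfap is highest in control replicate 1.

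Genes of water, potassium, glutamate and acid-base transport split. Of 32, 28 passed the filter, 2 rose and 3 fell (background 1.03% and 0.588%), with a median log2 fold change of -0.19. The median went to 0.0073 without control replicate 1, with 14 of 28 positive, and to -0.36 with a term for sex, which left 0 higher and 2 lower. OIR lay wholly above control in 4 of the 28 (background 13.5%) and wholly below in 6 (background 5.84%). Aqp4, the water channel of the glial endfoot, fell from 926, 686 and 699 CPM in control to 422, 415 and 303 CPM in OIR (-1.08 ± 0.20 SE, adjusted p = 0.026). Kcnj10, the inward rectifier Kir4.1 that carries potassium out of Mueller glia (chr1:172341210-172374085), fell from 161, 173 and 155 CPM to 114, 111 and 97.3 CPM (-0.66 ± 0.14, adjusted p = 0.045). Slc38a2, an amino acid transporter, fell by 0.96 on the log2 scale (adjusted p = 0.037), and rods held more of it than members in 4 of the 6 samples. Slc4a4, the sodium bicarbonate cotransporter, rose from 19.5, 11.1 and 15.5 CPM to 46.6, 35.2 and 52.7 CPM (1.45 ± 0.24, adjusted p = 0.020), and Slc14a1, a urea transporter, rose by 0.86 (adjusted p = 0.046). Each of these 5 genes kept the groups apart over all members. By depth, the groups overlapped for Kcnj10 in members with at least 12000 UMIs. They also overlapped for Slc14a1 below 8000 UMIs and for Slc38a2 from 8000 to below 12000. No gene of the list was called without OIR replicate 1, OIR replicate 3, control replicate 2 or control replicate 3. Aqp4 was found in 67.2%, 69.2% and 61.8% of OIR members and in 90.4%, 85.5% and 87.3% of control members at 4000 UMIs per cell, against at most 2.86% of rods, and at full depth in 83.2%, 84.6% and 74.9% of OIR and 96.1%, 91.5% and 95.95% of control members.

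Of the 25 Mueller glia genes outside the rule, 24 passed the filter, 3 fell (background 0.588%) and none rose (background 1.03%), with a median log2 fold change of -0.14, which ran from -0.22 in replicates 2 and 3 alone to -0.02 with a term for sex and was -0.08 without control replicate 3. OIR lay wholly below control in 8 of the 24 (background 5.84%) and wholly above in 2 (background 13.5%). Aqp4 and Kcnj10 were 2 of the 3, and the other was Abca8a, a lipid transporter, at 279, 210.2 and 192 CPM in OIR and 442, 465 and 409 CPM in control (-1.005 ± 0.18 SE, adjusted p = 0.028). Sox2 (0.11), Sox9 (0.11), Apoe (-0.38) and Kdr, a receptor for vascular endothelial growth factor (0.16), were not called. Apoe ranged from 7017 to 13458 CPM in OIR and from 8066 to 19048 CPM in control, with the highest value of each group in replicate 1. No gene of this list was called without OIR replicate 2, OIR replicate 3, control replicate 2 or control replicate 3.

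Of 26 genes of glycolysis, lactate and glycogen, all passed the filter, 2 rose and none fell (background 1.03% and 0.588%), with a median of 0.12. The median ran from -0.05 in replicates 2 and 3 alone to 0.29 with a term for sex, and was 0.0066 without control replicate 1 and 0.24 without OIR replicate 2. OIR lay wholly above control in 11 of the 26 (background 13.5%) and wholly below in 2 (background 5.84%). Gpi1, the second enzyme of glycolysis, rose from 255, 248 and 232 CPM in control to 501, 395 and 477 CPM in OIR (0.84 ± 0.16 SE, adjusted p = 0.034). Pfkp, the platelet form of phosphofructokinase, rose from 251, 236 and 189 CPM to 590.1, 418 and 429.8 CPM (1.03 ± 0.20, adjusted p = 0.035). Rods held more Gpi1 than members in all 6 samples, at 457 to 948 CPM. Eno1, the most abundant of the list, spanned 6640.1 to 8711 CPM in OIR and 4012 to 8658 CPM in control. No glycolysis gene rose past the limits without OIR replicate 1, OIR replicate 3, control replicate 2 or control replicate 3, and a term for sex left 0 higher and 1 lower. Of 26 tested metallothionein and antioxidant genes, Gsr, which regenerates glutathione, rose by 0.84 (adjusted p = 0.049) and Mt3, a zinc-binding metallothionein, fell by 0.97 (adjusted p = 0.021), 1 gene in each direction (background 1.03% and 0.588%). OIR lay wholly above control in 5 of the 26 (background 13.5%) and wholly below in 2 (background 5.84%). Mt1 (0.19) and Mt2 (0.62) were not called, and both were highest in OIR replicate 2. Rods held more Gsr than members in 5 of the 6 samples.

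Of 42 vascular ligands and guidance cues, 20 passed the filter, 2 rose and none fell (background 1.03% and 0.588%), with a median of 0.31. The median went to 0.07 without OIR replicate 1, with 12 of 23 positive, to 0.20 without control replicate 2 and to 0.11 when thinned. OIR lay wholly above control in 5 of the 20 (background 13.5%) and wholly below in none (background 5.84%). Apln, the ligand of the apelin receptor, rose from 11.8, 13.6 and 12.2 CPM in control to 95.5, 45.3 and 35.02 CPM in OIR (2.22 ± 0.38 SE, adjusted p = 0.022). Igfbp2, which binds insulin-like growth factors, rose from 55.0, 43.4 and 46.6 CPM to 129, 84.7 and 181 CPM (1.37 ± 0.25, adjusted p = 0.028). Ndp, norrin, which guides retinal vessels through frizzled-4, was not called (0.25 ± 0.22, adjusted p = 0.701). The 2 calls went to 1 without OIR replicate 1 or OIR replicate 3 and to 0 without control replicate 2 or control replicate 3, and a term for sex left 0 higher and 1 lower.

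Among 26 tested genes of the extracellular matrix and basement membrane, 3 rose and 1 fell (background 1.03% and 0.588%). OIR lay wholly above control in 6 (background 13.5%) and wholly below in 1 (background 5.84%). Loxl2, a collagen crosslinker, rose from 4.65, 6.81 and 6.76 CPM to 38.7, 17.8 and 37.6 CPM (2.39 ± 0.35, adjusted p = 0.012), Col2a1, the type II collagen chain, rose by 0.93 (adjusted p = 0.025) and Fn1, fibronectin, rose by 1.90 (adjusted p = 0.040). Bcan, the proteoglycan brevican, fell by 1.96 (adjusted p = 0.044). In members below 8000 UMIs Bcan did not fall: the ratio of mean CPM was 1.18 and the groups overlapped. None of the matrix genes was called without OIR replicate 1, control replicate 2 or control replicate 3. Of 36 tested genes of the Notch pathway and cell fate, Neurog2, a proneural transcription factor, rose from 3.59, 5.53 and 16.2 CPM to 66.6, 31.4 and 32.4 CPM (2.61 ± 0.50, adjusted p = 0.034). The control samples differed more than 4-fold among themselves in this gene. It was the 1 called gene of the list (background 1.03% higher, 0.588% lower), in which OIR lay wholly above control for 3 genes (background 13.5%) and wholly below for 4 (background 5.84%), and the call was lost without OIR replicate 1, OIR replicate 3 or control replicate 2.

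No gene was called by edgeR among 12 tested genes of retinoid handling, 11 of complement, 36 of the immediate early and heat shock response, 5 of the cell cycle and 20 of polarity and the outer limiting membrane. The background was 1.03% higher and 0.588% lower. Their median log2 fold changes were -0.23, 0.40, 0.06, 0.38 and -0.0027. These medians were not stable. Over the 20 alternatives they ran from -0.34 to 0.14 for retinoid handling, -0.63 to 0.42 for complement, -0.06 to 0.17 for the immediate early and heat shock genes, -0.01 to 0.48 for the cell cycle and -0.07 to 0.06 for polarity. Calls also appeared under other settings. DESeq2 called 3 complement genes lower, and edgeR called 2 lower with no filter on low counts and 1 lower with the replicate block, with all 5 Mueller genes, in replicates 2 and 3 alone or without control replicate 1. Over all genes, DESeq2 called 143 of 11389 lower. The edgeR fits called lower, in the same order, 222 of 18887, 107 of 11389, 95 of 11263, 138 of 11322 and 157 of 11609. Of the immediate early and heat shock genes, 3 were called higher in replicates 2 and 3 alone or without control replicate 1, 2 with the replicate block and 1 with no filter, and 1 was called lower with a term for sex. Over all genes, these fits called higher, in the same order, 134 of 11322, 171 of 11609, 139 of 11389 and 296 of 18887. The term for sex called 106 of 11389 lower. Fos, which dissociation of tissue is known to induce, lay at 2773 to 3508 CPM in OIR and 2495 to 3789 CPM in control (-0.09 ± 0.22, adjusted p = 0.911).

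**Figure D4:**
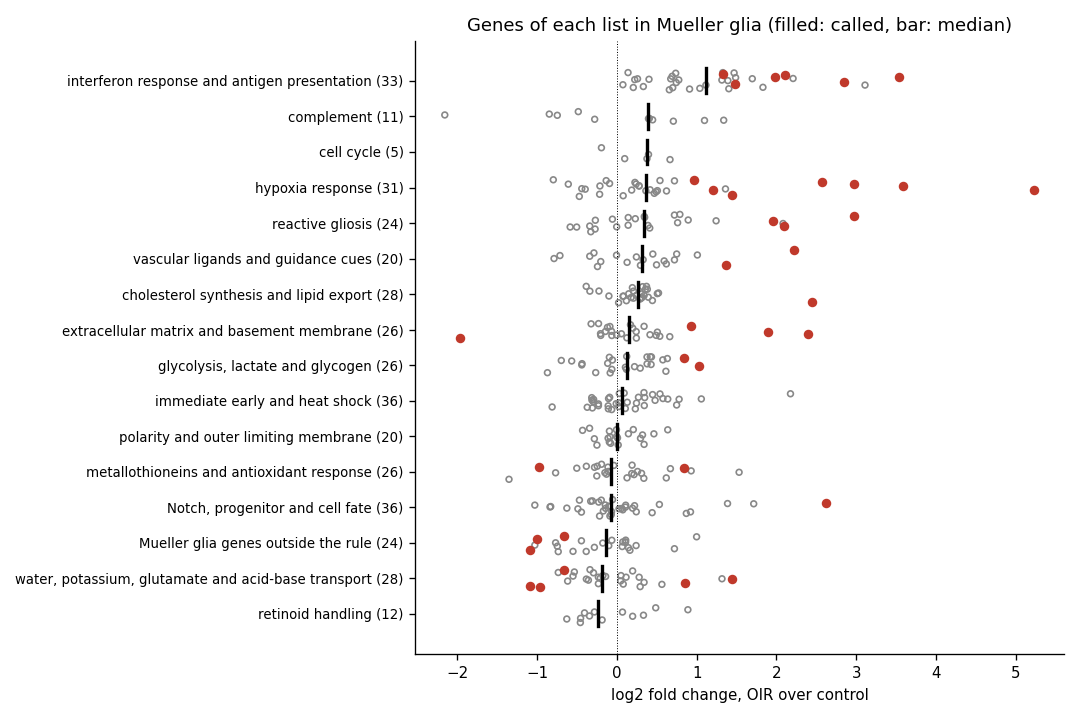
Log2 fold change of OIR over control (x axis) of every gene that passed the filter in 16 lists of gene functions (number of genes in brackets), filled where called, with a black bar at the list's median. The interferon list has the highest median, 1.12, and no gene below 0, and the list of Mueller glia genes outside the rule has 3 called genes, all lower.

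The called genes with the lowest p beyond these lists had varied functions. Among those that rose, Tnfrsf12a, the receptor of the cytokine TWEAK, went from 14.4, 21.7 and 22.3 CPM in control to 139, 90.3 and 121 CPM in OIR (2.59 ± 0.24 SE, adjusted p = 0.0031). Nxph4, a neurexophilin, went from 17.3, 25.5 and 39.2 CPM to 141, 112 and 142 CPM (2.29 ± 0.26, adjusted p = 0.0058). Odc1, the rate-limiting enzyme of polyamine synthesis, Kdelr3, a receptor that returns proteins to the endoplasmic reticulum, Fscn1, an actin bundler, Apba2, a neuronal adaptor, Sez6l, a membrane protein, and Tesc, a calcium-binding protein, all had the same adjusted p of 0.0058 and log2 fold changes between 1.23 (Odc1) and 2.93 (Sez6l).

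Egfl7 is a secreted factor best known from endothelium and was the only 1 of 10 endothelial markers to pass the filter. It rose from 8.67, 5.96 and 8.79 CPM in control members to 54.5, 32.1 and 47.2 CPM in OIR members (2.46 ± 0.27 SE, adjusted p = 0.0058). The 10 endothelial markers together, with Egfl7 the most abundant, summed to 59.4, 34.9 and 51.2 CPM in OIR and 81.2, 8.09 and 12.8 CPM in control. Without Egfl7 the control replicate 1 sum of 72.5 CPM was the highest. In the members of OIR replicates 2 and 3, 7 of the other 9 markers were at 0 (Cldn5, Cdh5, Ly6c1, Esam, Tie1, Tek and Emcn), and Pecam1 and Plvap lay between 0.349 and 2.58 CPM. Rods held Egfl7 at 20.3, 0.758 and 1.36 CPM in OIR and at 52.0, 1.09 and 25.3 CPM in control. The part of RNA from other cells in the Egfl7 result was not tested.

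Among the genes that fell, BC055402 (ENSMUSG00000101429, chr1:57200645-57214993), a long intergenic non-coding RNA, had the lowest p. It went from 113, 63.0 and 61.5 CPM in control to 11.98, 6.27 and 6.27 CPM in OIR (-3.25 ± 0.33 SE, adjusted p = 0.0044). Slco1c1, a carrier of thyroid hormone, went from 12.1, 16.6 and 21.6 CPM to 1.02, 0.349 and 0 CPM, or from 57, 39 and 32 UMIs to 7, 1 and 0 UMIs (-4.68 ± 0.52, adjusted p = 0.0058). Prex2, an activator of Rac, went from 212, 150.3 and 157 CPM to 61.6, 74.9 and 44.6 CPM (-1.59 ± 0.21, adjusted p = 0.0077). Zfp467, a zinc finger protein, went from 116, 105 and 112 CPM to 49.4, 54.4 and 40.2 CPM (-1.27 ± 0.15, adjusted p = 0.0058). Rods held Zfp467 at 37.9, 13.4 and 17.7 CPM in OIR and at 113, 16.8 and 40.2 CPM in control. Its change in rods was of like size but not called (-1.33 ± 0.67, edgeR adjusted p = 0.944). The part of rod RNA in the fall of Zfp467 was not tested. Fam159b, Pcolce2, which aids collagen processing, Kcnip4, which binds potassium channels, Car5b, a mitochondrial carbonic anhydrase, Deptor, an inhibitor of mTOR, and Cxcl14, a chemokine, fell by between 1.08 (Car5b) and 3.09 (Fam159b) on the log2 scale, with adjusted p between 0.0077 and 0.015. Kcnip4 lay at 2.78, 2.44 and 3.69 CPM in OIR members and at 12.1, 11.1 and 14.2 CPM in control members, but rods held it at 31.3, 7.58 and 15.3 CPM in OIR and at 59.5, 7.06 and 20.7 CPM in control, above the members in all samples but control replicate 2. The part of rod RNA in its fall was not tested. Cxcl14 also stands among the astrocyte markers used here, and was spread over many control members: 248 of 585, 58 of 200 and 42 of 173 of them had at least 1 UMI.

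The same samples held 1210 Mueller glia with at least 1000 but under 4000 UMIs, found with at least 3 of the 5 genes, and 3146 rods, so that the same contrast could be set beside them. In low-UMI Mueller glia 6839 genes were tested, 25 rose (0.366%) and 23 fell (0.336%). In rods 11387 genes were tested and none was called in either direction by edgeR (0%), with 460 at an unadjusted p under 0.05. The 3 sets of cells came from the same 6 libraries, so their values are not independent replicates of the condition. Ndufa4l2 changed by 4.16 ± 0.25 (SE) in low-UMI Mueller glia (adjusted p = 2.1e-08) and by 0.07 ± 0.79 in rods (adjusted p = 0.999), where it lay at 25.7, 17.2 and 10.9 CPM in OIR and 27.6, 17.9 and 0 CPM in control. Tnfrsf12a changed by 2.45 ± 0.47 in low-UMI Mueller glia (adjusted p = 0.018). Aqp4 changed by -1.58 ± 0.27 (adjusted p = 0.013) and Kcnj10 by -1.32 ± 0.25 (adjusted p = 0.016) in the low-UMI cells. Mt3 changed by -1.02 ± 0.20 in low-UMI Mueller glia (adjusted p = 0.019) and by -0.99 ± 0.38 in rods (adjusted p = 0.944).

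The difference of effects was tested as an interaction in edgeR, with the sample as a block. Of 12597 genes, none differed between Mueller glia and rods (0%) at the same limits, with 783 at an unadjusted p under 0.05, and DESeq2 called 14. For Ndufa4l2 the effect was larger in Mueller glia than in rods by 3.50 ± 0.76 on the log2 scale (unadjusted p = 0.0014, adjusted p = 0.533). For Anxa2 the difference was 2.96 ± 0.40 (unadjusted p = 5.2e-05, adjusted p = 0.217). Between high-UMI and low-UMI Mueller glia none of 9962 genes differed (0%), with 496 at an unadjusted p under 0.05, and DESeq2 called 0 with 161 at an unadjusted p under 0.05. Fos had a difference of 0.98 ± 0.21 (adjusted p = 0.091), since it fell by 1.08 in low-UMI cells (adjusted p = 0.031) and by 0.09 in high-UMI cells. By these tests no gene's OIR effect is shown to be particular to the high-UMI Mueller glia.

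**Figure D5:**
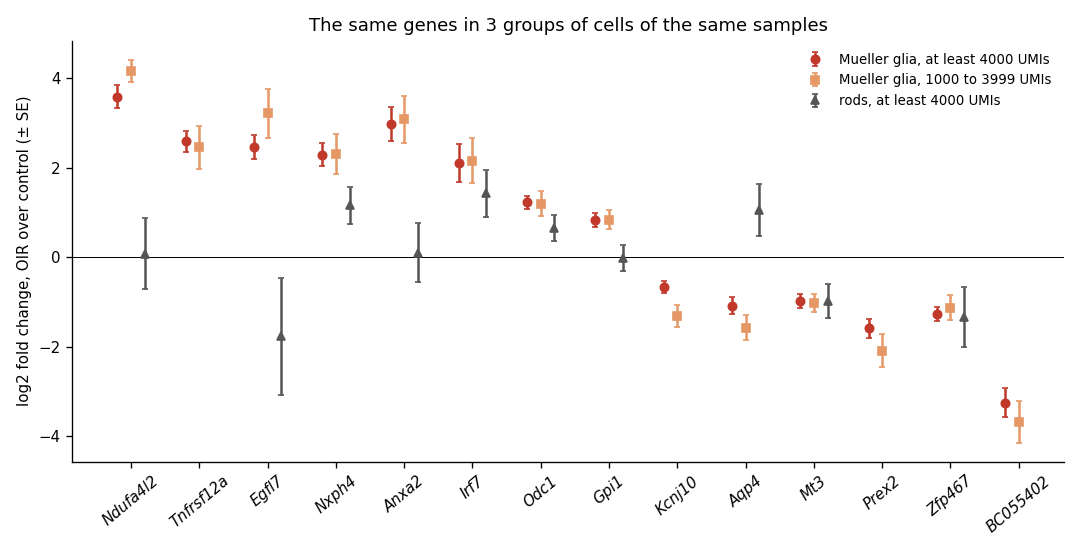
Log2 fold change of OIR over control ± SE (y axis) of 14 genes in Mueller glia with at least 4000 UMIs (circles), Mueller glia with at least 1000 but under 4000 UMIs (squares) and rods (triangles, absent where the gene did not pass the filter). Ndufa4l2 stands at 3.59, 4.16 and 0.07, and Mt3 near -1 in all 3.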

How the data were processed

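Retinas of 6 samples (3 OIR, 3 control) were profiled with 10x Chromium 3′ v3 chemistry. The authors demultiplexed, aligned and counted reads with Cell Ranger (3.1.0 in the file headers) and deposited raw UMI counts per gene and cell barcode in filtered matrices, with mm10 named in the submitters' processing notes. The methods describe 3 biological replicates a group, and nothing in the labels says that samples came from separate litters, so p-values measure the spread between these samples. Members, lists and tests were chosen with earlier results of these data known.

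Python 3.11.15 (SciPy 1.17.1) selected and summed the cells. edgeR 4.0.16 in R 4.3.3 (TMM, filterByExpr, quasi-likelihood test, Benjamini-Hochberg adjustment) gave all adjusted p-values except where DESeq2 is named, with SE as the log2 fold change over the root of F. DESeq2 1.42.0 served as an alternative. CPM is UMIs per 1000000 UMIs of the summed members. Member totals ran from 1479728 to 6846579 UMIs per sample, and sample totals from 15788524 to 42606878. Named genes were the selecting genes, a fixed set including Gfap and Vegfa, up to 4 called genes per list and direction, and the 10 with the lowest p in each direction that did not overlap. On simulated counts for this comparison (11389 genes, 200 changed), 58% of 2-fold and 97% of 4-fold changes were recovered. No doublet caller was run. Coordinates are GENCODE on GRCm38. Results that need certain withheld genes are not reported here.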

Additional observations from a re-analysis of the deposited data

How the results depend on the processing

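Of 47 named genes called in the comparison of OIR with control, none changed direction under 20 alternatives, 732 alternative values passed the limits and 202 did not. The count of 117 higher genes went to 296 with no filter on low counts, 72 with no upper limit on genes per cell, 62 with at least 3 of the 5 genes, 67 with members thinned to 4000 UMIs, and 12 to 171 with 1 sample left out. The count of 67 lower genes went to 143 with DESeq2, 222 with no filter, 43 with no upper limit, 30 with at least 3 of the 5 genes, 106 with a term for sex, 138 in replicates 2 and 3 alone, and 7 to 157 with 1 sample left out. The cause was not tested. Without the top 5% of members by UMIs in each sample, an alternative chosen after seeing the data, the counts were 96 and 61. Genes differing between Mueller glia and rods numbered 28 with no filter, 14 with DESeq2 and 0 to 3 with 1 sample left out, and between high-UMI and low-UMI cells 11 with no filter and 0 to 11 with 1 sample left out. The difference in share was 1.49 points over all kept cells, 5.14 over cells that were not rods and -3.01 to 2.69 with 1 sample left out.

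The sign of the log2 fold change turned for genes that were not called. For Gfap it was 0.18 with the replicate block, 1.13 at up to 10% mitochondrial counts, 0.14 with no upper limit on genes, 0.94 without rod-rich members, 0.38 when thinned, 1.57 in replicates 2 and 3 alone, 0.69 without the top 5% and -1.26 to 2.59 with 1 sample left out. With a term for sex, Mt1 stood at -0.28, Mt2 at -0.038 and Stat3 at -0.052. In replicates 2 and 3 alone Kdr stood at -0.0080 and Ndp at -0.079. With 1 sample left out, the ranges were -0.74 to 0.084 for Apoe, -0.25 to 0.054 for Fos, -0.013 to 0.28 for Kdr, -0.094 to 0.50 for Mt1, -0.0055 to 0.41 for Ndp, -0.044 to 0.26 for Sox2 and -0.072 to 0.33 for Sox9.

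Replicate numbers are shared by the groups, but the deviations of same-numbered samples correlated at 0.212, -0.0052 and 0.128 across genes, and not every sample correlated best with its own number. With the replicate block, 139 genes were higher and 107 lower, and Serpina3n was called (2.46, adjusted p = 0.038). With 173 to 653 members a sample, genes of few UMIs were limited by depth: 18887 of 31053 genes were detected in members and 11389 could be tested.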
